A study of Caenorhabditis elegans with 16 samples.

Results

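Small RNA recovered with the gld-1::gfp transcript from Caenorhabditis elegans was compared with small RNA recovered by the same gfp probes from animals that carry no gfp. The comparison rested on 5 of the 16 small RNA libraries of the series. They were chosen by their titles, 2 for gld-1::gfp elutions and 3 for N2 elutions made with gfp probes. The gld-1::gfp animals were of strain BS1080, a transgenic line whose transcript encodes the GLD-1 protein fused to GFP. The control animals were wild type N2, which lacks the target, so their elutions hold what binds probes, beads or background RNA. All animals were synchronised young adults, and RNA was crosslinked to protein in the living worms before lysis and pulldown with biotinylated DNA probes complementary to the gfp coding sequence. The study names UV crosslinking without a nucleoside analogue (cXL) as its method after a pilot that tried several, and the labels give no method for single libraries. An elution pooled very many whole worms, so how many cells held a miRNA and how much each cell held cannot be told apart. A further library, gfp::lin-41 from strain DG3913, was made with the same probes and has 1 replicate, and 2 gld-1 libraries came from pulldowns of the endogenous transcript in N2 with other probes. Both are set beside the comparison where they bear on it.

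MicroRNAs are short RNAs that guide an Argonaute protein, such as ALG-1, to target mRNAs, mainly by pairing of the bases near their 5′ end (the seed) with the 3′ UTR of the target. The gld-1 mRNA is made in the germline and encodes an RNA-binding protein that represses translation of other germline mRNAs. Members of the let-7 family share a seed and are best known as regulators of developmental timing in the larval epidermis. The comparison asks which miRNAs come down with the gld-1::gfp transcript and not with probes alone.

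The libraries differed widely in depth. The miRNA reads numbered 1897254 and 570986 in the gld-1::gfp libraries, and 73899, 42622 and 12474 in the control libraries. The 3 control libraries are therefore the less precise side of each comparison, and a count of 0 in them allows a share of up to 0.00406%, 0.00704% and 0.0241% of their reads (3 reads, counting error only). Of 434 listed mature miRNAs, 196 had a read in at least 1 of these 5 libraries, and 112 were tested because they had at least 10 reads in at least 2 of the 16 libraries. Of these 112, 90 also met that minimum within the 5 libraries and 22 met it only through the others. The tested miRNAs held between 99.8% and 100% of the reads of each library. miRNAs just inside the filter were miR-4816-3p and miR-797-5p with 10 reads in their second-highest library, and miR-78 with 9 reads lay just outside. The files hold no measure of the gld-1::gfp transcript itself, so its recovery could not be checked in these libraries. The labels do not say that replicates came from separate cultures, so all p-values measure only the spread between these libraries.

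Markers of muscle, neurons and glia were low on both sides. The miR-35 family, marking germline and embryo, took 0.488% and 0.299% of reads in gld-1::gfp, against 10.1%, 2.29% and 2.96% in the control. The epidermal markers, mostly let-7 family members, are described with that family below. The muscle miRNA miR-1-3p did not reach the filter, with 8 and 2 reads in gld-1::gfp against 1, 1 and 0 reads in the control. Of the neuronal markers, lsy-6-3p had 0 reads in every library and miR-124-3p had 0 and 27 reads in gld-1::gfp against 0, 24 and 1 in the control. The glial marker miR-228-5p had 459 and 48 reads in gld-1::gfp against 98, 103 and 37 in the control, and it did not pass the test (log2 fold change -0.38).

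The gld-1::gfp elutions were dominated by miR-84-5p. It took 1257290 and 356036 reads in gld-1::gfp, against 555, 130 and 198 reads in the control. As shares of all miRNA reads these were 66.3% (95% Wilson interval 66.2 to 66.3) and 62.4% (62.2 to 62.5) in gld-1::gfp, against 0.751% (0.691 to 0.816), 0.305% (0.257 to 0.362) and 1.59% (1.38 to 1.82) in the control. Both gld-1::gfp libraries lay far above all 3 control libraries. The share averaged 64.3% ± 2.77 in gld-1::gfp (SD, n = 2) and 0.881% ± 0.651 in the control (SD, n = 3). An exact two-sided permutation test over these libraries gave p = 0.2, which is the smallest p that 2 against 3 libraries can give. The study had already reported miR-84 for its gld-1 pulldowns, so this p adds no support of its own.

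miR-72-5p was the other abundant miRNA of the gld-1::gfp elutions. It had 399863 and 130797 reads in gld-1::gfp, against 1393, 594 and 523 reads in the control. Its share was 21.1% and 22.9% in gld-1::gfp, against 1.89%, 1.39% and 4.19% in the control (exact two-sided permutation p = 0.2, the smallest possible). This miRNA was singled out in these same libraries, so the p adds no support of its own. Together miR-84-5p and miR-72-5p made up 87.3% and 85.3% of the reads in gld-1::gfp, against 2.64%, 1.70% and 5.78% in the control. The control libraries had no such leading pair, and each had a different most abundant miRNA. These were miR-60-5p (27.2%) in replicate 1, miR-80-3p of the miR-58 family (24.3%) in replicate 2 and miR-70-3p (24.7%) in replicate 3.

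**Figure D1:**
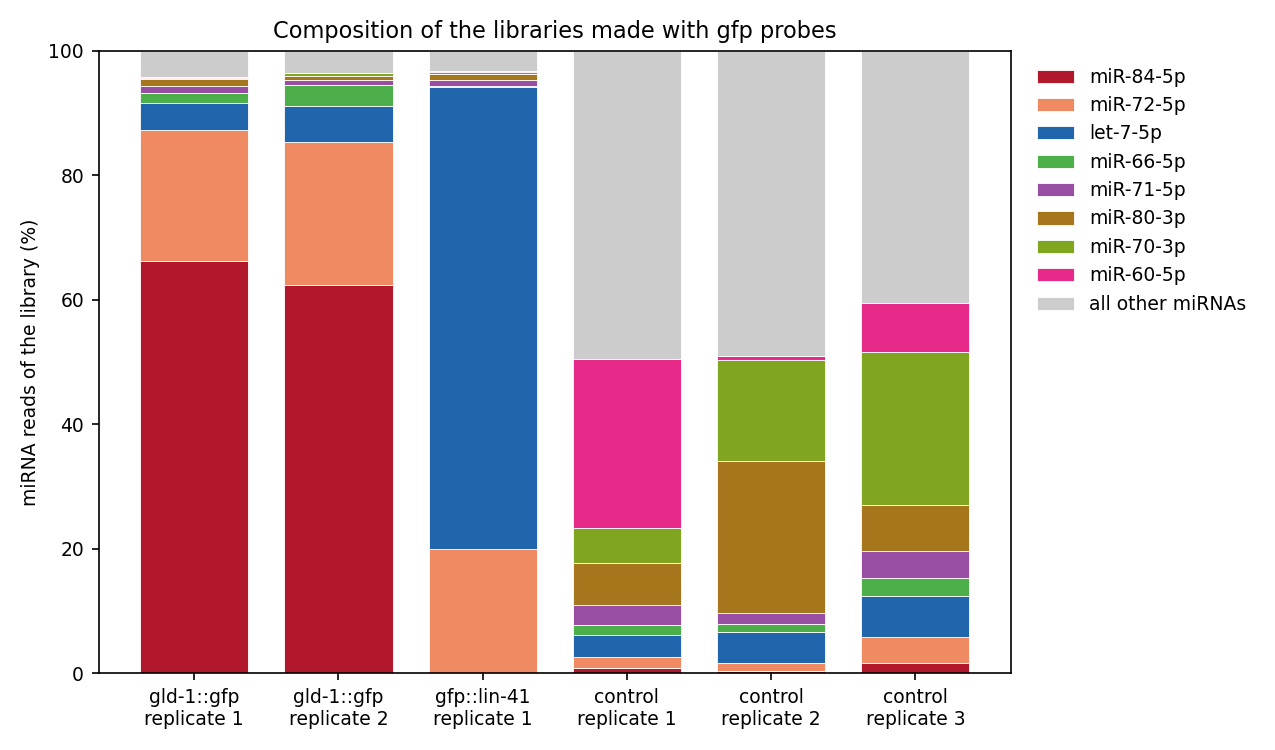
Share of miRNA reads (%, vertical axis) taken by 8 miRNAs and by all others in each library made with gfp probes, 1 stacked bar per library. miR-84-5p and miR-72-5p fill 87.3% and 85.3% of the gld-1::gfp bars, against 1.70% to 5.78% of the control bars, and let-7-5p fills 74.1% of the gfp::lin-41 bar.

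Across all 112 miRNAs, an edgeR quasi-likelihood test with TMM scaling (trimmed mean of M values) and a Benjamini-Hochberg adjusted p under 0.05 called 14, which is 12.5% of those tested. Of these, 13 were higher in gld-1::gfp (11.6% of those tested) and 1 was lower (0.893%), and 33 had an unadjusted p under 0.05. The median log2 fold change over all tested miRNAs was -0.30. The spread was estimated over all 16 libraries. A fit of only the 5 compared libraries called 7 of the 13 higher, and miR-4932 was not tested there. Both gld-1::gfp libraries lay above all control libraries for 22 of the 112 miRNAs in normalised CPM (the usual depth-scaled read count, here over the TMM-scaled library size) and below all of them for 14, to be read beside the 12.5% called. Normalised values add up to more than the nominal total in gld-1::gfp and to less in the control, because the TMM factors were 0.521 and 0.369 for gld-1::gfp and 4.35, 4.80 and 5.32 for the control.

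miR-84-5p had the largest log2 fold change of gld-1::gfp over control, 9.70 (SE 0.76, edgeR adjusted p = 1.4e-10). Its normalised level was 1271030 and 1688620 CPM in gld-1::gfp, against 1729, 637 and 2989 CPM in the control. Leaving out 1 library at a time gave log2 fold changes between 9.30 (without control replicate 2) and 10.36 (without gld-1::gfp replicate 1). The mir-84 hairpin lies at X:16022404-16022478 on the minus strand (WBcel235, Ensembl annotation) and overlaps no protein-coding gene.

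miR-72-5p rose with a log2 fold change of 6.67 (SE 0.61, edgeR adjusted p = 2.0e-09). Its normalised level was 404232 and 620349 CPM in gld-1::gfp, against 4339, 2909 and 7895 CPM in the control, with no overlap. Without gld-1::gfp replicate 1 the log2 fold change was 7.41, and without gld-1::gfp replicate 2 it was 6.34. The mir-72 hairpin lies at II:2452838-2452936 on the plus strand, outside protein-coding genes. miR-73-3p, listed in the same family, gave 0.91 and did not pass (adjusted p = 0.29). The third member, miR-74-3p, did not reach the read minimum.

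The let-7 family shows how far the pulldown separated miRNAs of 1 seed. Of its 7 listed members 6 were tested, 3 were called higher (miR-84-5p, let-7-5p and miR-48-5p), beside 11.6% over all tested miRNAs, and none was called lower. The median log2 fold change was 1.06, against -0.30 over all tested miRNAs. With library totals only miR-84-5p of the 3 stayed above 0, and the family median was -2.34, against -3.62 over all. The family as a whole made up 71.3% and 69.0% of the reads in gld-1::gfp, against 7.43%, 7.93% and 12.8% in the control. Within the family, miR-84-5p took 92.9% and 90.3% of the reads in gld-1::gfp, against 10.1%, 3.85% and 12.4% in the control. let-7-5p took 5.87% and 8.40% of family reads in gld-1::gfp, against 47.7%, 62.6% and 51.2% in the control, where it was the leading member.

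Ratios of 2 miRNAs in 1 library are free of any scaling between libraries. The log2 ratio of miR-84-5p to let-7-5p reads (pseudocount 1) was 3.99 and 3.43 in gld-1::gfp, against -2.24, -4.01 and -2.04 in the control. It averaged 3.71 ± 0.40 in gld-1::gfp (SD, n = 2) and -2.76 ± 1.09 in the control (SD, n = 3), a difference of 6.47 (exact two-sided permutation p = 0.2, the smallest possible). This p adds no support of its own, since the tests were chosen with earlier results of these data known. The sign of the ratio was opposite in the 2 groups, and the single gfp::lin-41 library stood at -10.18.

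let-7-5p itself, the founding member of the family, depended on the scaling. It had 79399 and 33116 reads in gld-1::gfp, against 2619, 2116 and 818 reads in the control, and its share of reads was 4.18% and 5.80% in gld-1::gfp, against 3.54%, 4.96% and 6.56% in the control. The shares overlapped. With TMM scaling its log2 fold change was 3.53 (SE 0.59, edgeR adjusted p = 5.2e-05), and with library totals alone it was -0.011 (adjusted p = 0.99). Without gld-1::gfp replicate 1 the TMM value was 4.40, and without gld-1::gfp replicate 2 it was 2.97. Over 19 alternative settings its adjusted p lay between 2.6e-13 and 0.99, under the threshold in 18.

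miR-48-5p and miR-241-5p share the seed and act with let-7 in larval timing. miR-48-5p had 15545 and 4571 reads in gld-1::gfp, against 1697, 806 and 316 in the control, and rose by 2.00 (SE 0.54, edgeR adjusted p = 0.011). Without gld-1::gfp replicate 2 its adjusted p was 0.106, and with library totals its log2 fold change was -1.47. Its adjusted p lay between 1.6e-05 and 0.11 over the alternatives. miR-241-5p had 1323 and 402 reads in gld-1::gfp, against 558, 302 and 261 in the control. Its normalised level of 1337 and 1907 CPM in gld-1::gfp overlapped the 1738, 1479 and 3940 CPM of the control (log2 fold change -0.55, adjusted p = 0.57). The hairpins of these 2 miRNAs lie within 5 kb of each other on chromosome V, mir-48 at 14364412-14364509 and mir-241 at 14366188-14366283.

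miR-66-5p belongs to the miR-64 family, whose hairpins mir-64, mir-65, mir-66 and mir-229 lie within 5 kb of each other; mir-66 is at III:2173108-2173206, in an intron of gcn-1 on the same strand. It had 33034 and 19678 reads in gld-1::gfp, against 1151, 545 and 370 in the control. Normalised, that was 33395 and 93330 CPM in gld-1::gfp, against 3585, 2669 and 5586 CPM in the control, again without overlap. The log2 fold change was 4.01 (SE 0.56, edgeR adjusted p = 5.9e-06), and it moved to 5.03 without gld-1::gfp replicate 1 and to 3.09 without gld-1::gfp replicate 2. With library totals it was 0.42 and did not pass (adjusted p = 0.56), the only 1 of 19 alternatives in which its call was lost. The share of reads overlapped, with 1.74% and 3.45% in gld-1::gfp against 1.56%, 1.28% and 2.97% in the control.

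Within that family the change was unequal. Of 5 tested members only miR-66-5p was called, a share near the 12.5% called over all miRNAs, and the median log2 fold change was 0.75. miR-66-5p made up 65.96% and 78.9% of the family's reads in gld-1::gfp, against 20.1%, 6.59% and 34.9% in the control, a ratio that no scaling changes. miR-65-5p, from the neighbouring hairpin, made up 25.5% and 16.6% in gld-1::gfp against 46.3%, 37.0% and 37.0% in the control, and its log2 fold change was 0.75 (adjusted p = 0.42).

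The arms of the mir-250 hairpin moved apart. miR-250-5p had 1551 and 318 reads in gld-1::gfp, against 49, 52 and 14 in the control, and miR-250-3p had 8 and 1 reads in gld-1::gfp, against 19, 19 and 4 in the control. miR-250-5p rose by 2.90 (SE 0.58, edgeR adjusted p = 0.00052), and miR-250-3p was the only miRNA called lower, with a log2 fold change of -3.29 (SE 1.00, adjusted p = 0.023). The call on miR-250-3p rests on single-digit counts in gld-1::gfp, and it was lost without gld-1::gfp replicate 1 (adjusted p = 0.19) and without gld-1::gfp replicate 2 (adjusted p = 0.14), with a range of 0.00025 to 0.19 over the alternatives.

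The log2 ratio of the arms, 5p over 3p with a pseudocount of 1, was 7.43 and 7.32 in gld-1::gfp, against 1.32, 1.41 and 1.58 in the control. This difference of 5.94 had an exact two-sided permutation p of 0.2, the smallest possible. The ratio joins 2 arms called in opposite directions in these same libraries, so this p adds no support of its own. The closeness of the gld-1::gfp ratios depends on the pseudocount, since miR-250-3p had 8 and 1 reads there. Without a pseudocount the log2 ratios were 7.60 and 8.31 in gld-1::gfp, against 1.37, 1.45 and 1.81 in the control, still without overlap. The ratio was 2.16 in gfp::lin-41, and 1.85 and 3.81 in the gld-1 libraries. Ratios between 4.35 and 6.33 occurred in the libraries of gld-1 pulldowns from strains with an edited miR-84 site, so a high ratio was not confined to gld-1::gfp. The hairpin lies at V:11769917-11770015 on the minus strand, within 5 kb of mir-61.

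**Figure D2:**
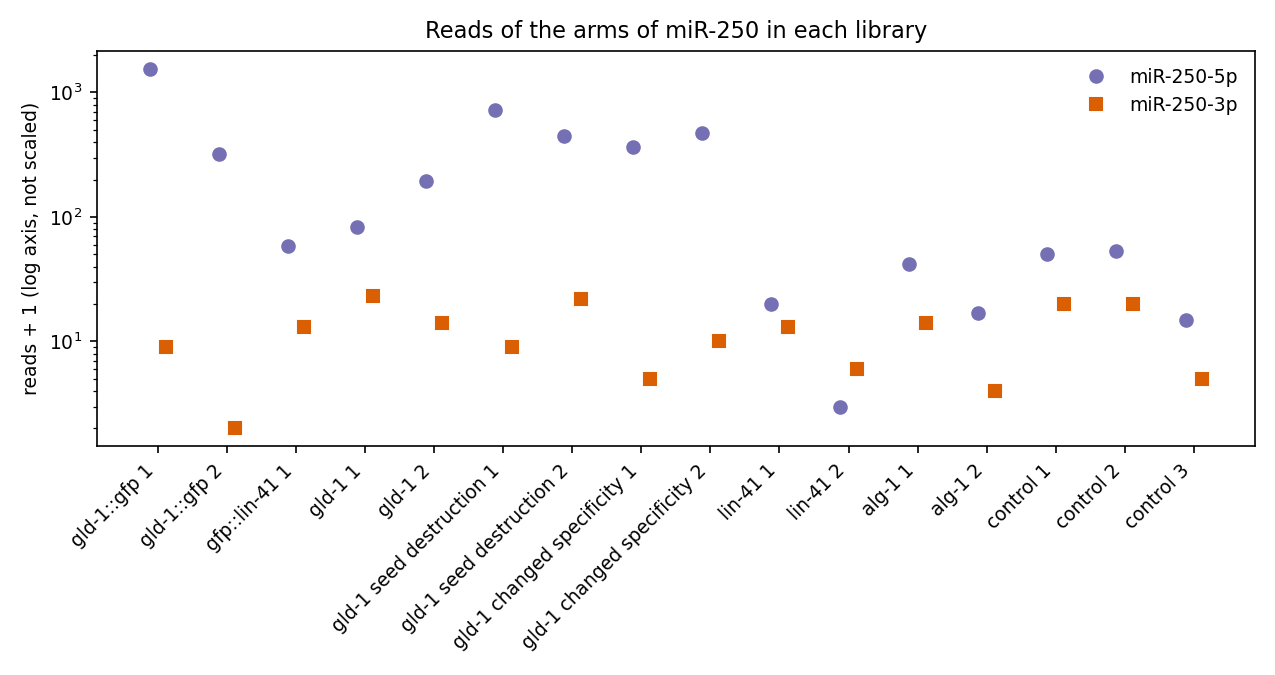
Reads plus 1 (log axis, not scaled for depth) of miR-250-5p (circles) and miR-250-3p (squares) in all 16 libraries, with gld-1::gfp at the left and the control at the right. The distance between the symbols is 1551 against 8 and 318 against 1 reads in gld-1::gfp, and 49 against 19, 52 against 19 and 14 against 4 reads in the control.

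Among the remaining miRNAs called higher, miR-71-5p and miR-246-3p are both known for effects on adult lifespan. miR-71-5p had 20861 and 4777 reads in gld-1::gfp, against 2422, 764 and 540 in the control (log2 fold change 1.76, SE 0.53, edgeR adjusted p = 0.023). The normalised levels of 21089 and 22657 CPM in gld-1::gfp lay above the 7545, 3742 and 8152 CPM of the control. Its call was lost without gld-1::gfp replicate 2 (adjusted p = 0.14) and without control replicate 2 (0.061), with RLE factors (0.11), with DESeq2 (0.062), with a filter on a mean of at least 10 reads (0.055) and in fits of only the 5 compared libraries (0.12) or the 6 made with gfp probes (0.16). With library totals it was lower in gld-1::gfp, at -1.70 (adjusted p = 0.030). Its adjusted p lay between 0.0011 and 0.16 over the 19 alternatives and under the threshold in 12, counting the one with library totals. In gfp::lin-41 miR-71-5p stood at 28772 CPM and in gld-1 at 34819 and 54533 CPM, above both gld-1::gfp values. The lin-41 libraries, at 16985 and 25790 CPM, overlapped gld-1::gfp. miR-246-3p had 922 and 305 reads in gld-1::gfp, against 34, 36 and 33 in the control (log2 fold change 2.26, SE 0.59, edgeR adjusted p = 0.0092). Its normalised level of 932 and 1447 CPM in gld-1::gfp lay below gfp::lin-41 (2933 CPM) and lin-41 (5726 and 6309 CPM). It was near gld-1 (1096 and 932 CPM) and above alg-1 (90.7 and 98.5 CPM). It was not called without gld-1::gfp replicate 2 (adjusted p = 0.11), it gave 3.08 without control replicate 3, and it gave -1.31 with library totals (adjusted p between 1.5e-06 and 0.12 over the alternatives).

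The other 5 called miRNAs had 0 or 1 read in the 3 control libraries pooled, so their fitted fold changes depend on the prior count and are given only as calls. Among the 5 compared libraries, 4 of them (all but miR-4932) reached 10 reads only in gld-1::gfp. Over all 16 libraries miR-5551-5p alone met the read minimum only with the help of gld-1::gfp, so it was tested because it was high there. miR-8187-3p had 372 and 199 reads in gld-1::gfp, against 0, 0 and 1 in the control. miR-8188-5p had 371 and 199 reads against the same 0, 0 and 1. The counts of these miRNAs differ by a single read over the 5 libraries, although their hairpins are annotated on different chromosomes (I and II), so the counting may have given the same reads to both and they are not separate findings. Both were called (edgeR adjusted p = 1.2e-05 for each). Over pooled libraries miR-8187-3p was 281-fold higher per TMM-scaled read in gld-1::gfp (95% counting interval 50.3 to 11135) and 29.8-fold higher per read (5.33 to 1181).

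Still rarer miRNAs followed. miR-4932 had 33 and 5 reads in gld-1::gfp and none in the control (edgeR adjusted p = 0.0092), and was at least 6.24-fold higher per TMM-scaled read against a floor of 3 reads over the pooled control. Its 33.4 and 23.7 CPM in gld-1::gfp lay near the 18.1 and 30.8 CPM of alg-1. They lay below gfp::lin-41 (165 CPM), gld-1 (69.3 and 60.1), the edited gld-1 strains (37.0 to 117) and lin-41 (569 and 322). miR-5551-5p had 39 and 11 reads in gld-1::gfp and none in the control, at least 8.21-fold higher on the same basis. The gfp::lin-41 library held 36 reads of it (51.6 CPM), between the 39.4 and 52.2 CPM of gld-1::gfp, while gld-1 stood at 0 and 11.3 CPM. The miR-5551-5p call (edgeR adjusted p = 0.022) is no separate support, given how this miRNA entered the test. Per unscaled read miR-4932 and miR-5551-5p were below the control's floor, so at this depth a difference was not detectable on that scale. miR-70-5p had 23 and 17 reads in gld-1::gfp, against 0, 0 and 1 in the control (edgeR adjusted p = 0.023), a ratio of 19.7 per TMM-scaled read (3.34 to 798). Per unscaled read the ratio was 2.09 (0.354 to 84.6), an interval that includes 1. miR-70-5p was far more abundant in the gld-1 libraries, made with other probes, at 4612 and 4146 reads. Its call was lost without gld-1::gfp replicate 2 (0.15), without control replicate 1 (0.10) and without control replicate 2 (0.077), within a range of 0.00033 to 0.53 over the alternatives. miR-70-3p, the abundant arm of that hairpin, had 2796 and 2914 reads in gld-1::gfp, against 4073, 6957 and 3075 in the control, and was the nearest miss (log2 fold change -1.90, edgeR adjusted p = 0.054). Its value rests on single libraries. It was -0.71 without gld-1::gfp replicate 1 (adjusted p = 0.69), -3.45 without gld-1::gfp replicate 2 (0.017) and -2.29 without control replicate 1 (0.010), and it was called in 6 of 19 alternatives, with the lowest adjusted p, 4.5e-05, when the name prefix was a factor.

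**Figure D3:**
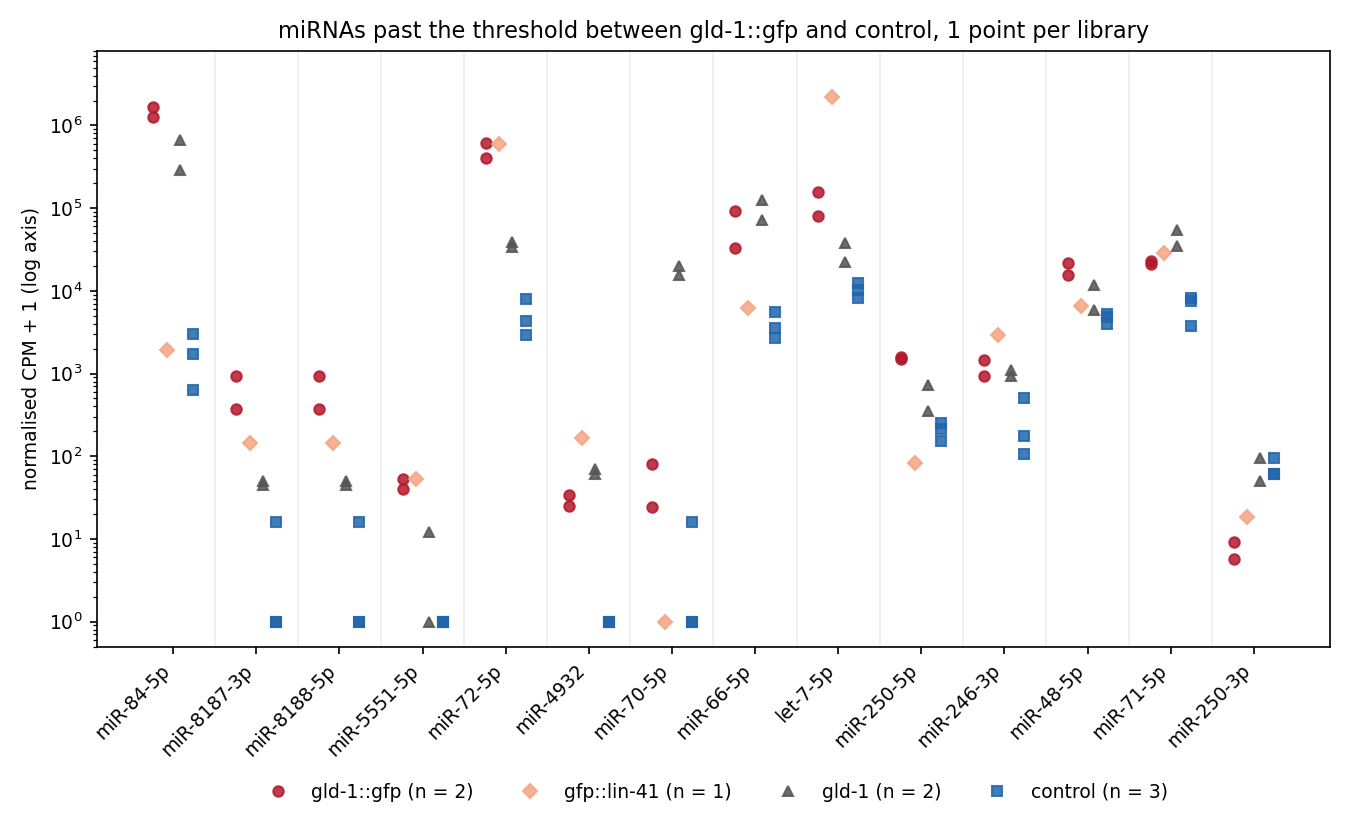
Normalised CPM plus 1 (log axis) of the 14 called miRNAs, 1 point per library, for gld-1::gfp (circles), gfp::lin-41 (diamonds), gld-1 (triangles) and control (squares), ordered by log2 fold change. Both circles lie above all squares for the first 13 miRNAs and below them for miR-250-3p, with miR-84-5p at 1271030 and 1688620 CPM in gld-1::gfp against 637 to 2989 in the control.

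The other nearest misses were miR-51-5p and miR-5549-3p. miR-51-5p had 518 and 253 reads in gld-1::gfp, against 986, 516 and 214 in the control (log2 fold change -1.78, edgeR adjusted p = 0.060). Both normalised values in gld-1::gfp, 524 and 1200 CPM, lay below the control's 3071, 2527 and 3231. Without gld-1::gfp replicate 2 its adjusted p was 0.049, in a range of 3.2e-05 to 0.62 over the alternatives. miR-5549-3p had 38 and 0 reads in gld-1::gfp and none in the control (adjusted p = 0.11), so 1 library carried all of its reads.

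The remaining families described here, miR-35, miR-51, miR-58 and lin-4, had no called member. With 12.5% of all miRNAs called, families of 2 to 6 members can show none without standing apart. None of 6 tested members of the miR-35 family, maternal and embryonic miRNAs, passed, with log2 fold changes from -2.05 to 1.84 and a median of -0.57. None of 6 members of the miR-51 family, needed in embryonic development, passed, with a median of -1.02. None of 4 members of the miR-58 family, related to fly bantam, passed, with a median of -0.16, nor did either of the 2 members of the lin-4 family, with a median of -0.84. Summed over the miR-35 family, the normalised level was 9353 and 8082 CPM in gld-1::gfp, against 23188, 4785 and 5570 CPM in the control, so the groups overlapped. miR-60-5p, the leading miRNA of control replicate 1, varied most among the controls, with 3709 and 392 reads in gld-1::gfp against 20097, 224 and 969 reads in the control (log2 fold change -3.22, edgeR adjusted p = 0.14). It was called lower when the name prefix was a factor (-3.49, edgeR adjusted p = 6.2e-12), with library totals (-6.49, 0.00078) and without control replicate 2 (-3.78, 0.0030). The prefix fit leaves few degrees of freedom for the spread, so its p-value calls for care. Without control replicate 1 the log2 fold change was -1.49 (adjusted p = 0.40).

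Several of the smaller changes turned their direction with the scaling. With library totals in place of TMM factors, 4 miRNAs were called higher and 81 lower in gld-1::gfp, and the median log2 fold change over all tested miRNAs was -3.62, a shift of the whole distribution. The 4 called higher under both scalings were miR-84-5p (6.19 with library totals), miR-72-5p (3.14) and the pair miR-8187-3p and miR-8188-5p. Of the 13 miRNAs called higher with TMM, 5 had a log2 fold change below 0 with library totals (let-7-5p, miR-250-5p, miR-246-3p, miR-48-5p and miR-71-5p), although each stayed above the median of its scaling. In shares of reads, both gld-1::gfp libraries lay above all controls for 7 of the 112 tested miRNAs (6.25%). Of these, 6 were among the 13, and 2 of the 6 (miR-4932 and miR-5551-5p) had no control read and a share under the control floor. Scaling by RLE or upper-quartile factors gave medians of -0.23 and -0.12, and 13 and 16 calls.

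**Figure D4:**
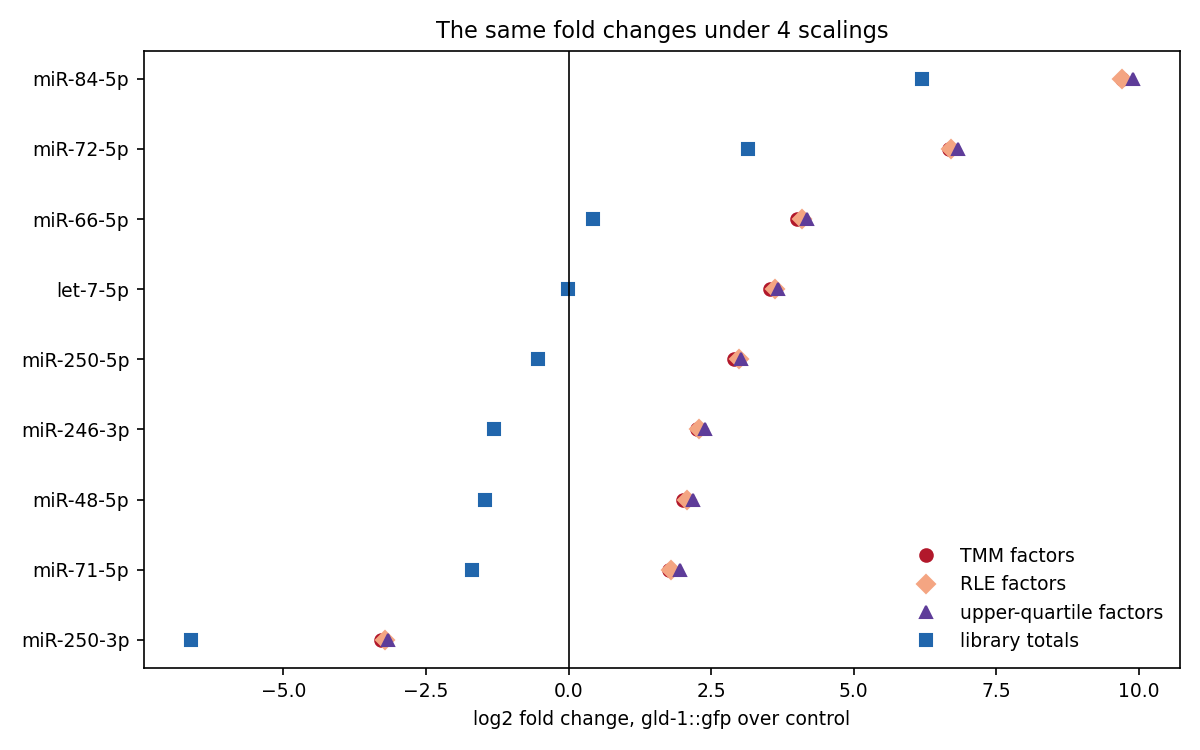
Log2 fold change of gld-1::gfp over control (horizontal axis) under TMM, RLE and upper-quartile factors and under library totals, 1 symbol per scaling, for the 9 called miRNAs with more than 1 read in the pooled control. miR-84-5p lies at 9.70 with TMM and 6.19 with library totals, while let-7-5p lies at 3.53 and -0.011.

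Library names carry a prefix that may mark a batch, and each gld-1::gfp library has 1 control with its prefix. Replicate 1 and control replicate 1 share prefix E, replicate 2 and control replicate 3 share PD1, and control replicate 2 has prefix PD2. In a regression of log2(reads + 1) within a prefix, modelled on the normalisation named in the study's methods, miR-84-5p lay 9.89 above the line for E (100 miRNAs) and 8.87 above it for PD1 (98 miRNAs), the largest residual in both. miR-72-5p ranked 2 in both, with residuals of 6.78 and 5.90. miR-66-5p ranked 5 in both, with 3.49 and 3.71, and let-7-5p lay 3.45 and 3.21 above the lines.

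Other ranks differed between the prefixes. miR-250-5p ranked 3 for E, 4.03 above the line, and 7 for PD1, 2.84 above it. miR-246-3p ranked 4 for E (3.85) and 15 for PD1 (1.48). Each library pair gives 1 residual, so these values carry no error of their own. miR-60-5p had the lowest residual for PD1, at -3.45, and stood 98th of 100 for E, at -4.19.

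**Figure D5:**
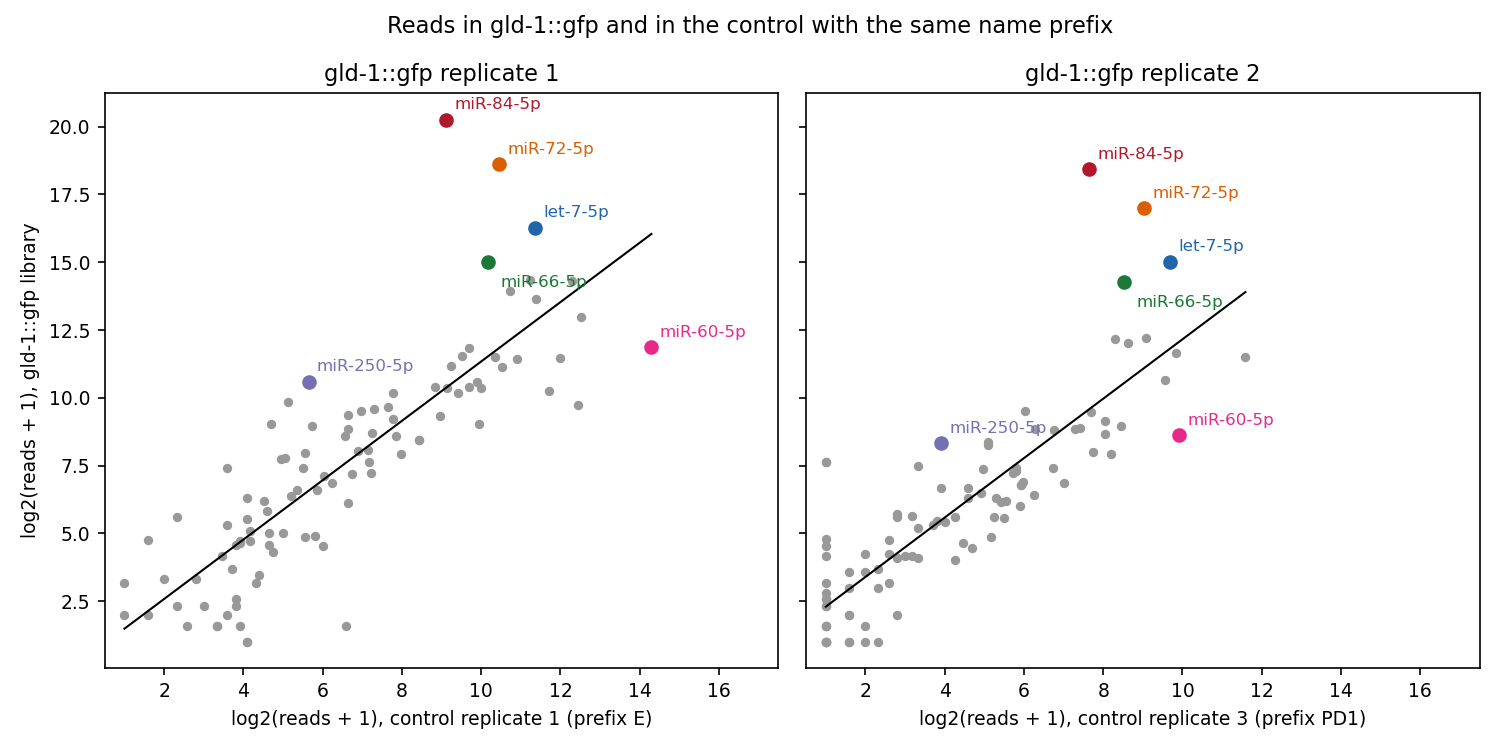
Log2(reads + 1) in gld-1::gfp replicate 1 (left) and replicate 2 (right) against the control library with the same name prefix, 1 point per miRNA, with the fitted line. miR-84-5p lies 9.89 and 8.87 above the line and miR-72-5p 6.78 and 5.90 above it, and miR-60-5p lies far below the line in both panels, with residuals of -4.19 and -3.45.

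A further comparison set gld-1::gfp against the mean of the lin-41 and alg-1 pulldowns (2 libraries each, N2 animals, probes to those transcripts). It shares the gld-1::gfp libraries, but no other library, with the comparison above. The edgeR test called 22 of 112 miRNAs (19.6%), 12 higher (10.7%) and 10 lower (8.93%), with 36 at an unadjusted p under 0.05. miR-84-5p was 7.74 higher (SE 0.62, adjusted p = 2.3e-10), miR-250-5p 4.30 higher (adjusted p = 1.5e-06) and miR-66-5p 3.48 higher (adjusted p = 6.0e-06). The mean joins unlike pulldowns for some miRNAs. miR-72-5p was 2.66 higher (adjusted p = 0.00017), but its 404232 and 620349 CPM in gld-1::gfp overlapped the 373222 to 439115 CPM of lin-41 and lay above only the 12403 to 19808 CPM of alg-1. let-7-5p was 2.20 lower (log2 fold change -2.20, adjusted p = 0.011) and miR-71-5p 1.97 lower (-1.97, adjusted p = 0.012). lin-41 is a classic let-7 target and alg-1 a known miR-71 target, and let-7-5p stood at 80267 and 157064 CPM in gld-1::gfp, against 1055340 and 3275790 CPM in the lin-41 libraries and 119843 to 154934 CPM in the alg-1 libraries, which it overlapped. miR-71-5p stood at 21089 and 22657 CPM in gld-1::gfp, against 258732 to 425262 CPM in alg-1 and an overlapping 16985 to 25790 CPM in lin-41.

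Other miRNAs stood out only in one of these contrasts by the threshold, a difference that was not itself tested. miR-42-3p and miR-37-3p of the miR-35 family were higher than in lin-41 and alg-1 (log2 fold changes 3.60 and 1.70, edgeR adjusted p = 0.00039 and 0.016), while against the control they gave 1.84 and 1.37 (adjusted p = 0.11 for each). miR-60-5p had 3709 and 392 reads in gld-1::gfp, against 2 and 0 reads in lin-41 and 0 and 3 in alg-1, and was called (edgeR adjusted p = 0.0015). It had 224 to 20097 reads in all 6 libraries made with gfp probes, among them the controls, which lack the target transcript. In all 10 libraries made with other probes it had 0 to 5 reads. The gld-1::gfp libraries differ from lin-41 and alg-1 in both transcript and probes, and what led to this call was not tested.

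The pulldowns of gld-1 from N2 recovered the endogenous transcript with other probes and are compared with the same control libraries, so the values are set side by side. The log2 fold change over control of miR-84-5p was 9.70 for gld-1::gfp and 8.07 for gld-1, and miR-84-5p took 37.3% and 43.1% of the reads in gld-1. miR-66-5p gave 4.01 for gld-1::gfp and 4.63 for gld-1. miR-72-5p gave 6.67 for gld-1::gfp and 2.84 for gld-1, with 4.96% and 2.179% of the reads in gld-1. miR-65-5p gave 0.75 for gld-1::gfp and 5.23 for gld-1. miR-70-5p stood at 23.3 and 80.6 CPM in gld-1::gfp, against 19988 and 15573 CPM in gld-1. These pulldowns also differ in strain, probes and, in part, name prefix, and their differences were not tested.

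The gfp::lin-41 library used the same gfp probes on another transcript and is 1 library without replicates. Its normalised level lay above all controls for 30 of the 112 tested miRNAs (26.8%), among them 10 of the 13 called higher in gld-1::gfp, of which 2 had no control read. miR-72-5p stood at 595049 CPM in gfp::lin-41, between the 404232 and 620349 CPM of the gld-1::gfp libraries. miR-84-5p stood at 1905 CPM in gfp::lin-41, within the control range of 637 to 2989, miR-250-5p at 81.8 CPM, below the control range, and miR-70-5p had 0 reads. miR-66-5p, at 6181 CPM in gfp::lin-41, lay below both gld-1::gfp values and just above the control's highest of 5586.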

How the data were processed

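Small RNA from pulldown elutions was made into libraries with the SMARTer smRNA-Seq kit, which adds a poly(A) tail. The authors removed adaptors and tails with cutadapt 1.14, discarded reads mapping to Escherichia coli with Bowtie2 2.3.3.1 and counted known miRNAs with miRDeep2. The deposited counts are raw: whole reads for each mature miRNA of each precursor, without scaling. A genome build is not given in the sources used here, and hairpin positions come from the Ensembl annotation of WBcel235.

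For the 15 miRNAs listed for several precursors the largest row was used. Every miRNA that reached 10 reads in 2 or more libraries was tested with edgeR 4.0.16 (R 4.3.3; TMM factors, 1 mean per group over all 16 libraries, robust quasi-likelihood fit), with Benjamini-Hochberg adjustment and a threshold of 0.05. The common biological coefficient of variation was 0.532. Total reads were between 12474 and 1897254 in the compared libraries. Single values were compared by exact permutation over libraries (scipy 1.17.1). Replicates differed by more than sampling noise (chi-square per degree of freedom 98.4 between the gld-1::gfp libraries and 49.0 to 239 between the controls), so each counts as 1 sample. The fit was also run on simulated counts, with known changes set on the control composition and 1 fixed spread. That setting is simpler than these libraries, so it checks the code and not the calls.

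Groups came from sample titles. The libraries, miRNA lists and tests were chosen with earlier results of these data known. Named miRNAs are let-7-5p, miR-84-5p, miR-48-5p, miR-241-5p, miR-71-5p, every called miRNA and its other arm, the 5 with the largest share in each group, the 3 nearest the threshold, and members of their families. Alternatives covered scaling, filters, DESeq2 1.42.0, summed precursors, libraries in the fit, replicate and prefix terms and leaving out each library. miRNA sequences and seed matches were not analysed here.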

Additional observations from a re-analysis of the deposited data

Results flagged for a closer look

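The gfp::lin-41 library, which entered no test by itself, held signals above the control libraries. miR-72-5p took 19.93% of its reads (95% Wilson interval 19.87 to 19.98), against at most 4.19% in a control library, and let-7-5p took 74.15% (74.09 to 74.2), against at most 6.56% in a control library. The intervals cover counting error only, and the library has no replicate. The study itself reports let-7 as enriched in the gfp::lin-41 pulldown.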

How the results depend on the processing

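The number of called miRNAs was 14, and most settings kept it within 1.5 times. It moved to 85 (4 higher, 81 lower) with library totals, to 7 with only the 5 compared libraries and to 7 with only the 6 libraries made with gfp probes, both with fewer libraries to estimate the spread, and to 33 (23 higher, 10 lower) with the name prefix as a factor. With only the 5 compared libraries, miR-48-5p (edgeR adjusted p = 0.057), miR-246-3p (0.083), miR-5551-5p (0.057), miR-70-5p (0.15), miR-250-3p (0.13) and miR-71-5p (0.12) were not called. miR-4932 was not tested there. The fit of 6 libraries lost the same calls and did not call miR-4932 (0.081). The prefix fit adds prefix terms to the group means, which leaves few degrees of freedom for the spread. DESeq2 called 13, no filter 14, and TMM factors computed without miR-84-5p and miR-72-5p, an alternative chosen after seeing the data, 16. Leaving out 1 library gave 13 to 19 calls. With the replicate block there were 17 calls (14 higher, 3 lower) and all 14 kept their call. Replicate numbers only name the libraries. Deviations correlated at 0.28 and 0.16 between libraries of 1 number, and at 0.28 and 0.18 between libraries of 1 prefix. miR-84-5p, miR-72-5p and the pair miR-8187-3p and miR-8188-5p passed under all 19 alternatives. Library totals gave log2 fold changes of -0.011 for let-7-5p, -0.53 for miR-250-5p, -1.31 for miR-246-3p, -1.47 for miR-48-5p and -1.70 for miR-71-5p. miR-241-5p gave 0.018 with the replicate block and -0.82 to 0.14 on leaving out 1 library. With the mean of the 3 controls, miR-84-5p lay on average 10.19 above the regression line, against 9.38 within prefixes. Calls against lin-41 and alg-1 stayed within 1.5 times of 22 under all 13 alternatives run. The cause of these shifts was not tested. Control depth, at most 73899 reads, limits rare miRNAs.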
